A study of Mus musculus with 9 samples.

Results

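Macrophages of the heart were followed through 10 genes that mark macrophages and other myeloid cells: Csf1r, Mrc1, Cd14, Fcgr3, Tyrobp, Lyz2, Cd68, Laptm5, C1qa and C1qb. A probe set was taken as a member when the platform annotation gave it 1 of these symbols and no other. This gave 15 of the 12488 probe sets of the array, for 10 of the 8251 genes that a probe set with 1 symbol names. Of the 15, 12 passed the filter on low signal, and they stood for 9 of the 10 genes. The probe set of Fcgr3 and a second, dimmer probe set each of Lyz2 and Cd68 did not pass it. By their suffix, Csf1r (161832_r_at), Cd68 (103016_s_at), Laptm5 (161819_f_at) and C1qb (162276_i_at) were treated as possibly shared with other transcripts.

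RNA from both ventricles was measured on 9 arrays, with 1 array for each of 9 female mice aged 3 months. In the IGF1R-caPI3K group, 3 mice overexpressed the receptor for insulin-like growth factor 1 (IGF1R) from a transgene, together with a constitutively active p110 subunit of the lipid kinase PI3K. In the IGF1R-dnPI3K group, 3 mice carried the same IGF1R transgene with a dominant negative p110. In the IGF1R group, 3 mice carried the IGF1R transgene alone. All 9 hearts therefore overexpressed IGF1R, and the sources used here do not name the promoter that drives each transgene. Mice with a PI3K transgene alone and non-transgenic littermates were not analysed here, so no value is relative to a normal heart. Cells were not sorted, so in these whole ventricles fewer cells of a type and less RNA per cell cannot be told apart.

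The adult mouse heart holds resident macrophages that engulf debris and dead cells and lie among cardiomyocytes, fibroblasts and vessels. Their survival depends on colony stimulating factor 1 acting through Csf1r, and PI3K is among the enzymes that this receptor engages inside the cell. Mrc1, the mannose receptor, marks the resident tissue macrophage, and the C1q subunits, which begin the classical complement pathway, are made largely by macrophages in many tissues.

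Signals are the deposited intensities, each array scaled by the authors to a common trimmed mean, and a change is a difference of mean log2 signal with its standard error from limma. A probe set was called at an adjusted p under 0.05 (limma, Benjamini-Hochberg over all 7898 probe sets tested). The highest signal of the 9 Y-linked probe sets, 63.9, marks the background in these female mice. The arrays differed with the groups: the 3' to 5' ratio of the CreX control was 1.74 to 1.89 on IGF1R-caPI3K arrays and 1.79 to 1.83 on IGF1R-dnPI3K arrays, against 1.05 to 1.26 on IGF1R arrays. This difference cannot be told apart from either contrast against the IGF1R group. The IGF1R-dnPI3K replicate 3 array was the least like the rest: its correlations with the remaining 8 arrays averaged 0.927 (Pearson, over probe sets), against 0.947 or more for any other array. The defining macrophage gene Adgre1 (F4/80) was dim and was not tested: its brighter probe set read 56.2, 92.7 and 98.6 in IGF1R-caPI3K hearts and 39.3, 25.4 and 24.9 in IGF1R-dnPI3K hearts, against 148.3, 165.5 and 113.7 in IGF1R hearts. Its signal exceeded the Y-linked level in every IGF1R heart and in no IGF1R-dnPI3K heart. The integrin gene Itgam and the pan-leukocyte gene Ptprc were also below the filter, with highest signals of 80.1 and 83.9 over all arrays. Itgam read 37.9, 28.3 and 29.6 in IGF1R-dnPI3K hearts, against 25.3, 22.2 and 39.4 in IGF1R hearts. The brightest Ptprc probe set read 44.7, 41.2 and 64.9, against 83.9, 76.9 and 59.8. Itgb2, another integrin gene below the filter, read 88.7, 48.5 and 7.5, against 57.4, 81.0 and 59.5. The dimmer Adgre1 probe set was at most 38.1 on any array.

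Hearts with dominant negative PI3K had lower signal of Csf1r, Lyz2 and Mrc1 than hearts with IGF1R alone, by 39.0% to 49.7%. The remaining 9 tested probe sets were not called, and 1 of them, of Laptm5, had a change above 0. The 3 called among 12 stand beside 7.8% of all tested probe sets called lower in this comparison and 13.5% called in either direction. An unadjusted p under 0.05 was found for 4 of the 12, all lower, beside 32.2% of all (limma). The median change of the 12 was -0.39 on the log2 scale, beside -0.09 over all tested probe sets. The groups did not overlap, with every IGF1R-dnPI3K heart lower, for 4 of the 12, beside 20.8% of all tested probe sets.

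In hearts with active PI3K no member was called against IGF1R alone, and 2 of 12 had an unadjusted p under 0.05, both higher (Cd68 and C1qa), where 0.215% of all tested probe sets were called and 18.4% had such a p (limma). The lowest adjusted p of the 12 was 0.199. The median change was 0.00, beside -0.04 over all tested probe sets, with 6 changes above 0 and 6 below. Between the groups there was no overlap for 3 probe sets with IGF1R-caPI3K hearts higher, beside 14% of all, and for 1 with them lower, beside 18.8%.

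In the direct comparison of active and dominant negative PI3K, all 12 tested member probe sets had higher mean log2 signal with active PI3K. None was called. For Laptm5 (161819_f_at) that change was 0.004, and its mean intensity was lower with active PI3K, at 545 against 571. The change kept its sign in every alternative to the fit for 9 of the 12. An unadjusted p under 0.05 was found for 9 of the 12, beside 15.4% of all tested probe sets, while 1.24% of all were called (limma). The lowest adjusted p was 0.0762, and the median change was 0.59, beside 0.05 over all. For 5 of the 12 every IGF1R-caPI3K heart exceeded every IGF1R-dnPI3K heart, beside 10.9% of all tested probe sets. This comparison and that of IGF1R-dnPI3K with IGF1R share the IGF1R-dnPI3K arrays, so they are not independent.

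**Figure D1:**
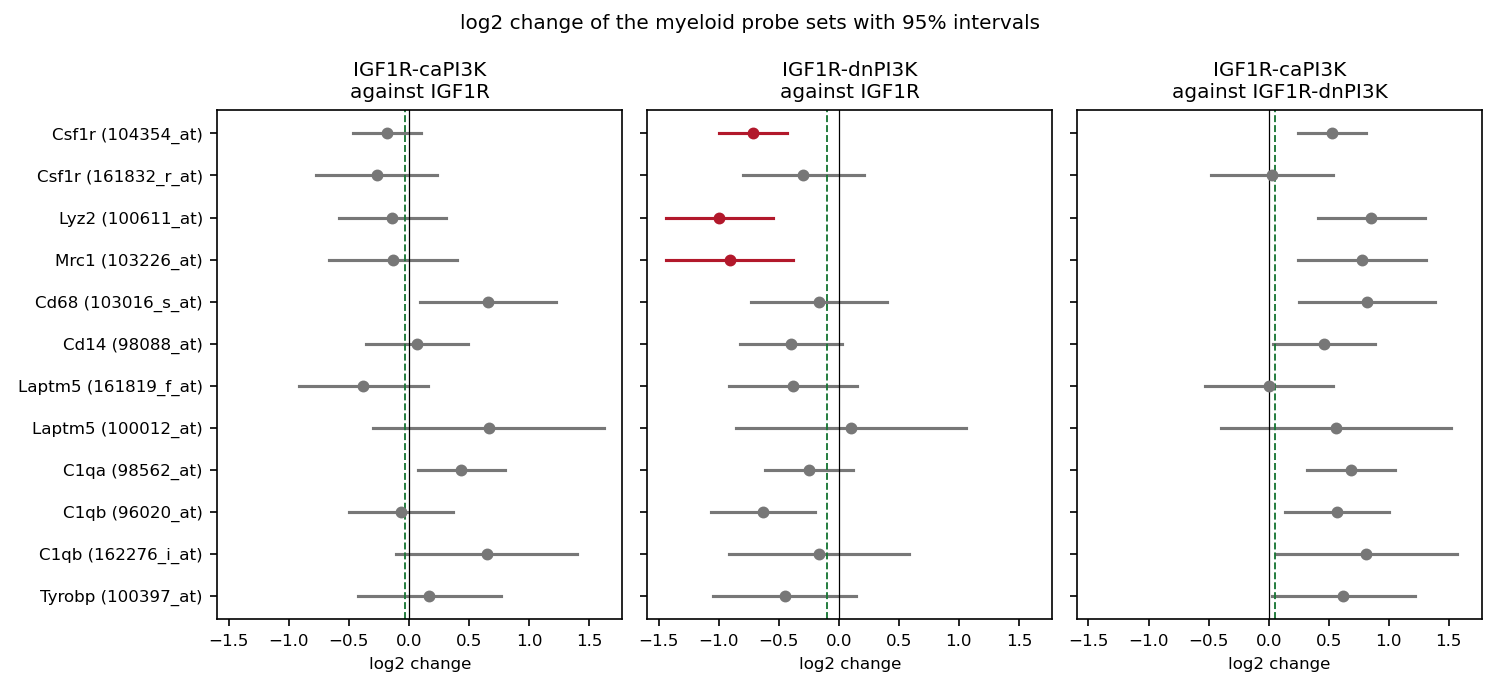
log2 change of the 12 tested probe sets (rows) in the 3 comparisons (panels), with points for the limma estimate and lines for its 95% interval; red marks an adjusted p under 0.05, the solid line is 0 and the dashed line is the median of all tested probe sets. Called changes are seen in the IGF1R-dnPI3K against IGF1R panel alone, for Csf1r, Lyz2 and Mrc1.

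Among the receptors, Csf1r, the receptor for colony stimulating factor 1, gave the most even picture. Its brighter probe set (104354_at) read 741.5, 636.8 and 801.2 in IGF1R-caPI3K hearts and 513.9, 488.7 and 500.1 in IGF1R-dnPI3K hearts, against 854.6, 877.0 and 738.7 in IGF1R hearts. Every heart with dominant negative PI3K lay below every other heart, and the spread within that group (SD 12.6, n = 3) was the smallest of the 3 groups. Csf1r fell in IGF1R-dnPI3K against IGF1R hearts by 0.71 ± 0.13 on the log2 scale (limma adjusted p = 0.0138; 95% interval -0.997 to -0.43). Against the same dominant negative group it was 0.53 ± 0.13 higher in IGF1R-caPI3K hearts, with an adjusted p of 0.0848. IGF1R-caPI3K and IGF1R hearts overlapped, with a change of -0.18 ± 0.13 (adjusted p = 0.476).

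A second probe set of Csf1r (161832_r_at) was dimmer and did not follow the first. It read 132.4, 207.6 and 177.5 in IGF1R-caPI3K hearts and 170.1, 195.9 and 138.4 in IGF1R-dnPI3K hearts, against 177.7, 228.4 and 209.3 in IGF1R hearts. All 3 groups overlapped, and the change in IGF1R-dnPI3K against IGF1R hearts was -0.29 ± 0.23 (limma adjusted p = 0.404), with a 95% interval of -0.80 to 0.21 that includes the estimate of the brighter probe set.

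Mrc1, the mannose receptor, which binds and takes up glycoproteins, read 256.8, 302.5 and 274.0 in IGF1R-caPI3K hearts and 224.9, 159.4 and 118.4 in IGF1R-dnPI3K hearts, against 333.0, 347.8 and 242.5 in IGF1R hearts. Each heart with dominant negative PI3K was below each heart of the other groups, replicate 1 least so. Mrc1 fell in IGF1R-dnPI3K against IGF1R hearts by 0.91 ± 0.24 (limma adjusted p = 0.0346), and the F test over the 3 groups, which passed for 7.24% of all tested probe sets and for Csf1r and Lyz2, did not pass for it (adjusted p = 0.0623). The call held in 9 of 20 alternatives to the fit, and among those that ended it was leaving out any 1 of the 6 IGF1R and IGF1R-caPI3K arrays, or IGF1R-dnPI3K replicate 2 or 3 (adjusted p 0.0516 to 0.105). In the direct comparison Mrc1 was 0.78 ± 0.24 higher in IGF1R-caPI3K than in IGF1R-dnPI3K hearts (adjusted p = 0.168).

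Cd14, the co-receptor that passes bacterial lipopolysaccharide to Toll-like receptor 4, read 1114.6, 1325.7 and 810.7 in IGF1R-caPI3K hearts and 945.4, 743.5 and 651.3 in IGF1R-dnPI3K hearts, against 1121.4, 941.1 and 986.5 in IGF1R hearts. The groups overlapped in every pairing, and the IGF1R-dnPI3K against IGF1R change was -0.40 ± 0.19 (limma adjusted p = 0.184).

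Tyrobp (DAP12), the signalling adaptor for several activating receptors of myeloid cells, read 358.6, 410.2 and 329.8 in IGF1R-caPI3K hearts and 382.2, 165.7 and 210.2 in IGF1R-dnPI3K hearts, against 310.2, 380.5 and 287.5 in IGF1R hearts. Replicate 1 of the dominant negative group was the highest IGF1R-dnPI3K heart and lay among the other groups, while its other 2 hearts were the lowest of all 9. The change was -0.45 ± 0.27 in IGF1R-dnPI3K against IGF1R hearts (limma adjusted p = 0.275). Fcgr3, a low-affinity receptor for immunoglobulin G, was too dim to test, at 23.8, 36.1 and 115.3 in IGF1R-caPI3K hearts and 100, 70.2 and 89.4 in IGF1R-dnPI3K hearts, against 61.2, 100.1 and 75.2 in IGF1R hearts.

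**Figure D2:**
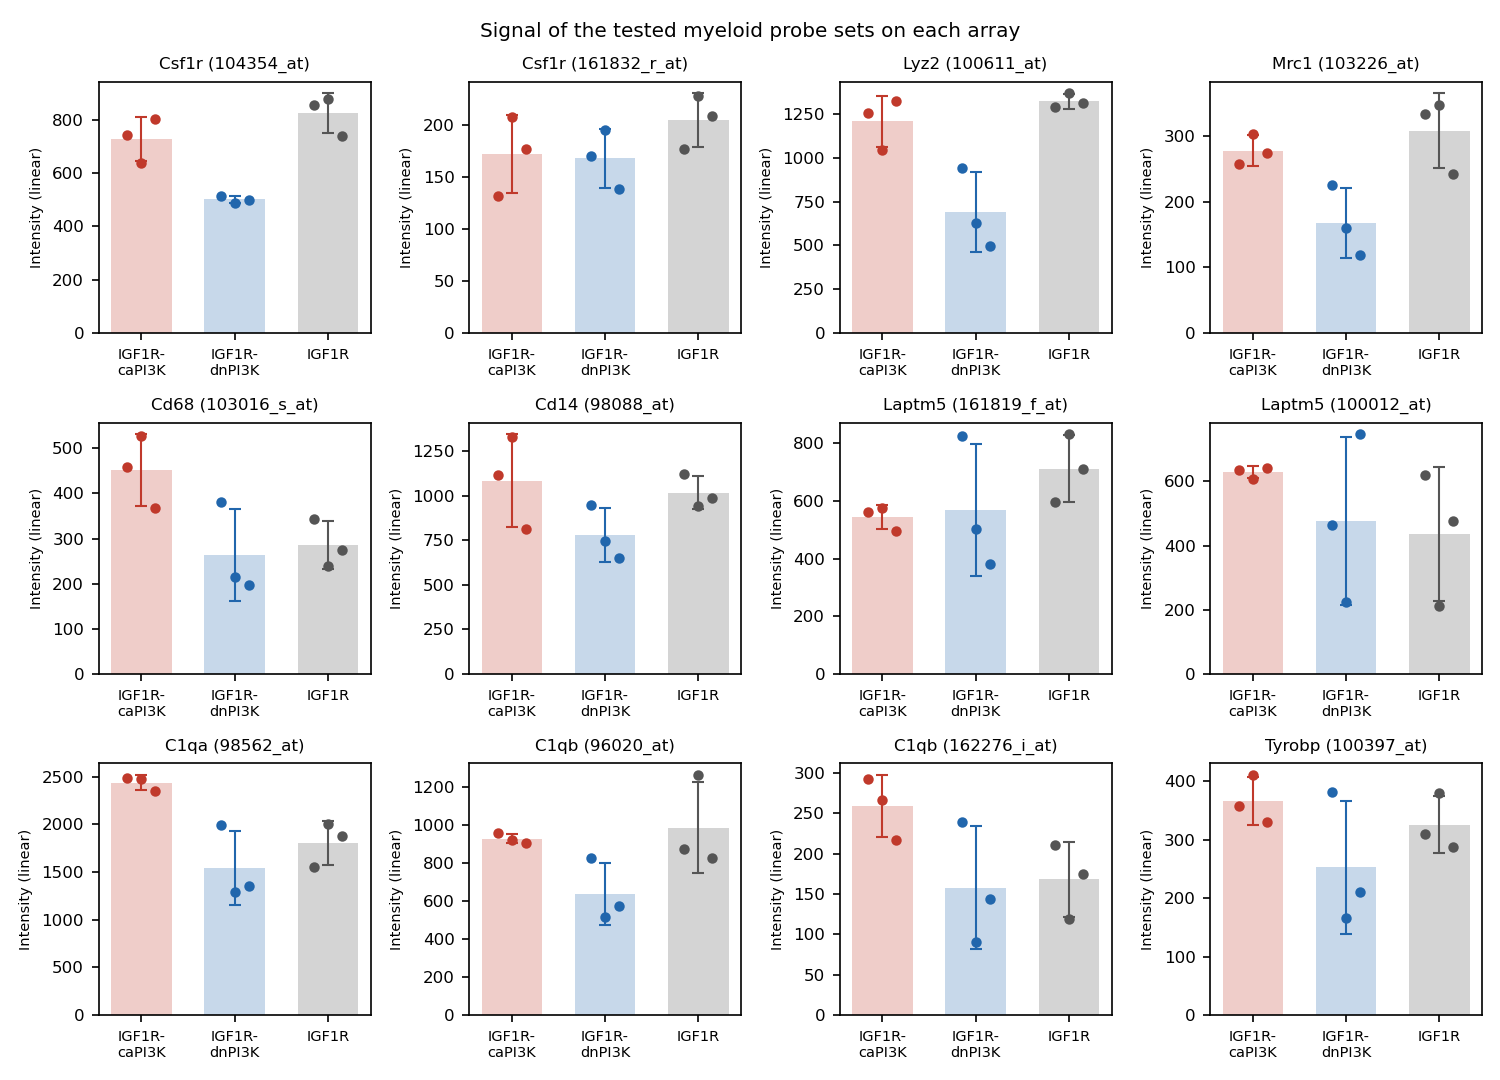
Deposited signal (linear scale from 0) of each of the 12 tested member probe sets (panels) in IGF1R-caPI3K, IGF1R-dnPI3K and IGF1R hearts, with 1 point per mouse, a bar at the group mean and a line for 1 SD on either side; the levels of different probe sets are not comparable. The 3 IGF1R-dnPI3K points of Csf1r (104354_at) lie together at 488.7 to 513.9, below all 6 other points.

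Of the lysosomal and secreted proteins, Lyz2, the lysozyme of macrophages and neutrophils, was the one that was called. It read 1256.9, 1043.6 and 1322.5 in IGF1R-caPI3K hearts and 940.5, 625.9 and 497.2 in IGF1R-dnPI3K hearts, against 1288.2, 1366.8 and 1309.7 in IGF1R hearts. Every heart of the dominant negative group was below every other heart, and its replicate 1 came closest to them. Lyz2 fell in IGF1R-dnPI3K against IGF1R hearts by 0.99 ± 0.20 (limma adjusted p = 0.0168) and was 0.86 ± 0.20 higher in IGF1R-caPI3K than in IGF1R-dnPI3K hearts (adjusted p = 0.0762). The call held in 14 of 20 alternatives. It was lost on leaving out any 1 of the 3 IGF1R arrays (adjusted p 0.0504 to 0.0635), without a filter (0.0636), with only the 2 groups compared (0.0557) and with the range of mouse numbers as a block (0.412). A second Lyz2 probe set (162309_at) was not tested and read 12.1, 6.0 and 25.1 in IGF1R-caPI3K hearts and 56.8, 18.9 and 12.9 in IGF1R-dnPI3K hearts, against 11.6, 13.5 and 12.6 in IGF1R hearts, all within the Y-linked level. Lyz1 is a near-identical copy of Lyz2, and the array's probes could read both.

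Promoter sequences of Lyz2 and Mrc1 are shown because both genes fell and both are typical macrophage genes. They are RefSeq sequences of the mouse build GRCm38.p6, running from 250 bases before the gene's start to 50 after it, with Lyz2 at chr10:117282223-117282522 on the minus strand and Mrc1 at chr2:14229164-14229463 on the plus strand. Capitals mark AGGAAG on either strand, the core of a site of PU.1 and other ETS factors.
Lyz2: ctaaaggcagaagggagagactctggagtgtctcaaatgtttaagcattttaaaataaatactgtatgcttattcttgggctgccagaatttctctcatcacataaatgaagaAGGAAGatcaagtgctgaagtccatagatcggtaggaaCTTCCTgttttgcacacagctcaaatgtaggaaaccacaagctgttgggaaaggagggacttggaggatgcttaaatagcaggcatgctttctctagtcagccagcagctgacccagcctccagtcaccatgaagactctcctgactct
Mrc1: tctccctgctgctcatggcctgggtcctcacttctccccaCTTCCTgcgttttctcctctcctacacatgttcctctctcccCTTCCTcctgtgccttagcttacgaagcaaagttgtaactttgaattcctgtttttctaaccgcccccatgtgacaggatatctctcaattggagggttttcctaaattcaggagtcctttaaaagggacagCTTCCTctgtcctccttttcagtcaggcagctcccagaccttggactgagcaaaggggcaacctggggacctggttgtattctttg
The Lyz2 window held 2 matches and the Mrc1 window 3. Of 4 members with a window at the gene's annotated start (Lyz2, Mrc1, C1qb and Cd68), 3 held at least 1 match and Cd68 none, and of 27018 windows of the same length, 1 at a start of each gene in the table, 35.1% held at least 1. The motif is short, and a match is a description of these letters, not of binding.

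Cd68, a membrane protein of the lysosome, showed another order of groups. The brighter Cd68 probe set (103016_s_at) is possibly shared with other transcripts. It read 458.0, 526.8 and 368.0 in IGF1R-caPI3K hearts and 381.5, 213.9 and 197.2 in IGF1R-dnPI3K hearts, against 343.5, 240.0 and 273.6 in IGF1R hearts. Every heart with active PI3K exceeded every IGF1R heart, by 0.66 ± 0.26 in the mean (limma adjusted p = 0.209), and the IGF1R-dnPI3K hearts spanned the IGF1R range, with a change of -0.16 ± 0.26 (adjusted p = 0.695). The second Cd68 probe set (162173_i_at), at background, read 6.4, 11.5 and 9.2 in IGF1R-caPI3K hearts and 9.1, 5.5 and 3.7 in IGF1R-dnPI3K hearts, against 7.4, 7.4 and 6.3 in IGF1R hearts.

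Laptm5, a lysosomal membrane protein of blood cells, had 2 probe sets whose arrays were ordered differently. The first (161819_f_at) read 562.9, 575.1 and 495.7 in IGF1R-caPI3K hearts and 825.6, 503.6 and 382.8 in IGF1R-dnPI3K hearts, against 596.8, 831.2 and 710.2 in IGF1R hearts. The second (100012_at) read 635.3, 607.7 and 643.1 in IGF1R-caPI3K hearts and 465.1, 223.4 and 746.4 in IGF1R-dnPI3K hearts, against 620.7, 210.8 and 477.3 in IGF1R hearts. IGF1R replicate 2 was thus the highest heart of all on the first and the lowest on the second. Neither was called in any comparison, and in IGF1R-caPI3K against IGF1R hearts the changes were -0.38 ± 0.24 and 0.66 ± 0.43 (limma adjusted p = 0.434 and 0.447).

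C1qa and C1qb encode the A and B chains of C1q. C1qa read 2481.3, 2475.0 and 2344.3 in IGF1R-caPI3K hearts and 1987.3, 1291.2 and 1349.0 in IGF1R-dnPI3K hearts, against 1550.4, 1998.8 and 1871.5 in IGF1R hearts. All 3 hearts with active PI3K were above the other 6. The change was 0.44 ± 0.17 in IGF1R-caPI3K against IGF1R hearts (limma adjusted p = 0.199) and 0.69 ± 0.17 against IGF1R-dnPI3K hearts (adjusted p = 0.0840), and neither was called.

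The brighter C1qb probe set (96020_at) read 955.7, 921.9 and 906.2 in IGF1R-caPI3K hearts and 823.7, 517.6 and 575.3 in IGF1R-dnPI3K hearts, against 872.5, 1260.6 and 827.3 in IGF1R hearts. Hearts with dominant negative PI3K were the lowest 3 of the 9, replicate 1 by a narrow margin. The change of -0.63 ± 0.20 against IGF1R hearts did not pass (limma adjusted p = 0.0575). The dimmer C1qb probe set (162276_i_at) read 292.0, 267.0 and 216.9 in IGF1R-caPI3K hearts and 239.8, 90.2 and 144.0 in IGF1R-dnPI3K hearts, against 211.1, 118.7 and 175.2 in IGF1R hearts, with a change of -0.17 ± 0.34 in IGF1R-dnPI3K against IGF1R hearts (adjusted p = 0.765).

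C1qc, the gene of the C chain, is not a member but belongs to the complement list given below. Its values by mouse were added after they were seen, since the 3 chains are assembled together. It read 2032.8, 1947.2 and 1975.3 in IGF1R-caPI3K hearts and 1870.4, 1477.6 and 1942.5 in IGF1R-dnPI3K hearts, against 1220.5, 1617.2 and 1232.5 in IGF1R hearts. IGF1R hearts had the lowest mean for this chain, although IGF1R replicate 2 exceeded IGF1R-dnPI3K replicate 2, whereas IGF1R-dnPI3K hearts had the lowest mean for C1qa and C1qb. The changes of C1qc were 0.56 ± 0.14 in IGF1R-caPI3K hearts and 0.38 ± 0.14 in IGF1R-dnPI3K hearts, each against IGF1R hearts (limma adjusted p = 0.102 and 0.0959).

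Within the dominant negative group, replicate 1 differed from the other 2 mice. The titles number the mice, and by these numbers IGF1R-dnPI3K replicate 1 falls in one range with IGF1R-caPI3K replicate 1 and IGF1R replicate 3. IGF1R-dnPI3K replicates 2 and 3 have consecutive numbers far from those of all other mice, and the labels do not say what a range of numbers marks. All 12 tested member probe sets were higher in IGF1R-dnPI3K replicate 1 than in the mean of replicates 2 and 3, with a median difference of 0.65 on the log2 scale, beside 0.08 over all tested probe sets. Set against the IGF1R mean, replicate 1 had 6 of 12 lower and a median difference of 0.02, and replicates 2 and 3 had 11 of 12 lower and a median difference of -0.61, beside -0.03 and -0.12 over all tested probe sets. The 3' to 5' ratio of pyruvate carboxylase, measured by control probe sets on RNA of the sample, was 1.57 to 1.87 on IGF1R-caPI3K arrays and 1.79, 2.12 and 3.25 on IGF1R-dnPI3K arrays 1, 2 and 3, against 1.40 to 1.71 on IGF1R arrays. It was thus highest on the same 2 arrays, and its part in the member signal was not tested. The median signal of all probe sets was 185.1, 172.1 and 160.6 on IGF1R-dnPI3K arrays 1, 2 and 3, against 190.1 to 196.7 on IGF1R arrays. Its part was not tested either.

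IGF1R-dnPI3K replicate 1 exceeded the mean of replicates 2 and 3 by 0.06 and 0.05 for the brighter and the dimmer Csf1r probe set. For the dimmer one and for Laptm5 (100012_at) replicate 1 lay between replicates 2 and 3. Csf1r (104354_at) was low in all 3, with differences from the IGF1R mean of -0.68, -0.75 and -0.72 in IGF1R-dnPI3K replicates 1, 2 and 3. Those of Lyz2 were -0.49, -1.08 and -1.41, and those of Mrc1 were -0.43, -0.93 and -1.36. Within the number range that holds 1 mouse of each group, the median member difference was -0.02 for IGF1R-dnPI3K minus IGF1R and 0.25 for IGF1R-caPI3K minus IGF1R-dnPI3K. Csf1r was -0.52 and Lyz2 -0.48 in the first of these single-mouse differences, and Mrc1 was -0.11. With the number range as a block no member was called, and in IGF1R-dnPI3K against IGF1R hearts the lowest adjusted p was 0.343, for Csf1r with a change of -0.62 ± 0.21 (limma). In that fit the contrast rests on IGF1R-dnPI3K replicate 1 alone.

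Without IGF1R-dnPI3K replicate 1 the fit called 7 members lower in IGF1R-dnPI3K than in IGF1R hearts, namely Csf1r, Lyz2, Mrc1, Laptm5 (161819_f_at), C1qa, C1qb (96020_at) and Tyrobp, where 14.1% of all tested probe sets were called lower. In the same fit 8 probe sets were called higher in IGF1R-caPI3K than in IGF1R-dnPI3K hearts, from Csf1r, Lyz2, Mrc1, Cd68, C1qa, Tyrobp and both sets of C1qb, where 4.05% of all were called higher. The heart left out had the highest mean member signal of its group. That fit keeps only IGF1R-dnPI3K replicates 2 and 3, whose number range holds no other mouse. Group and number range therefore cannot be told apart in it. Without replicate 3, the array that stood apart, Csf1r and Lyz2 were called lower in IGF1R-dnPI3K than in IGF1R hearts, with changes of -0.71 and -0.78, beside 4.29% of all called lower, and in the direct comparison the smallest adjusted p was 0.134, for Csf1r. The median SD of log2 signal of the members was 0.16 in IGF1R-caPI3K and 0.46 in IGF1R-dnPI3K hearts, against 0.22 in IGF1R hearts, and over all tested probe sets it was 0.16, 0.26 and 0.16.

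**Figure D3:**
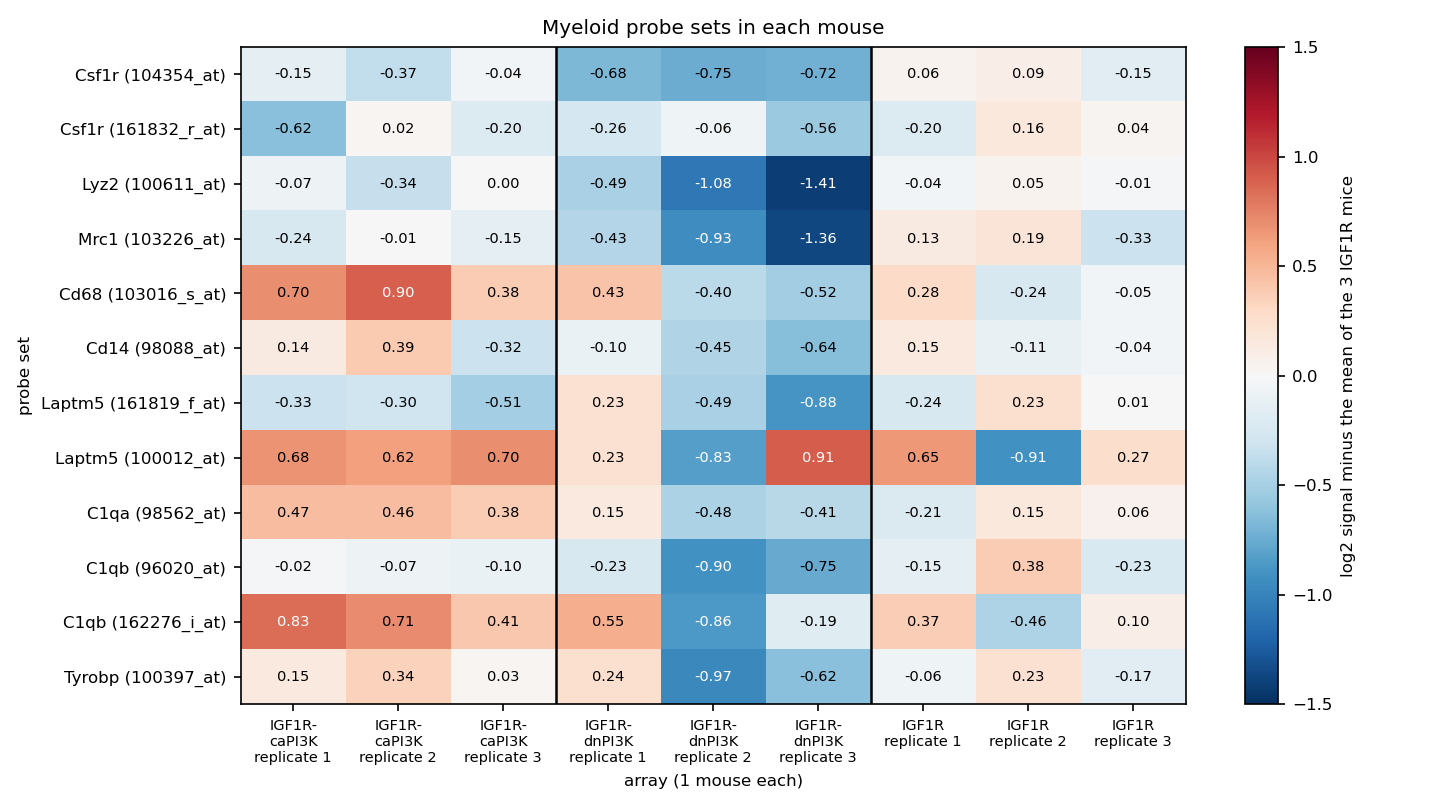
log2 signal of the 12 tested probe sets (rows) in each mouse (columns, grouped as IGF1R-caPI3K, IGF1R-dnPI3K and IGF1R), minus the mean of the 3 IGF1R mice; blue is lower and red higher. In IGF1R-dnPI3K replicates 2 and 3 most cells are blue, down to -1.41 for Lyz2, while replicate 1 has 6 cells of 12 below 0, with Csf1r the lowest at -0.68.

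Other macrophage genes gave few calls. In IGF1R-dnPI3K against IGF1R hearts, the counts of each list stand beside 13.5% of all tested probe sets called and 7.8% called lower. An unadjusted p under 0.05 was found for 32.2% of all (limma). In the list of colony stimulating factor and cytokine receptors and their ligands, 1 of 9 tested genes changed in IGF1R-dnPI3K against IGF1R hearts: Ifngr1, a chain of the interferon gamma receptor, fell by 0.84 ± 0.23 (limma adjusted p = 0.0369), at 367 ± 122 in IGF1R-dnPI3K hearts and 632 ± 60.1 in IGF1R hearts (SD, n = 3 each). Every IGF1R-caPI3K heart was also below every IGF1R heart for Ifngr1, with a change of -0.63 ± 0.23 that was not called (limma adjusted p = 0.181). Csf1, the ligand of Csf1r, was not called, at 540 ± 220 in IGF1R-dnPI3K hearts and 815 ± 168 in IGF1R hearts (change -0.65 ± 0.24, adjusted p = 0.0924). Cx3cr1, the fractalkine receptor of monocytes and macrophages, had a change of -0.55 ± 0.23 and was not called. Of the 9 changes in this list 7 were below 0 and 2 above, with a median of -0.51. Those above were Csf3r (0.76 ± 0.36) and Csf2ra (0.47 ± 0.31), neither of them called. An unadjusted p under 0.05 was found for 4 of the 9, all lower (limma). In the list of 5 other tested macrophage surface genes (Stab1, Folr2, Mertk, Itgax and Lyve1) no gene was called, all 5 changes were below 0, 2 had an unadjusted p under 0.05 and the median was -0.51. That of Stab1, a scavenger receptor, was -0.52 ± 0.19 (adjusted p = 0.0905).

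Among Fc receptors and their signalling partners, none of 9 tested genes was called on its brightest probe set in IGF1R-dnPI3K against IGF1R hearts, with 2 at an unadjusted p under 0.05 (limma). Fcgr2b, the inhibitory receptor for immunoglobulin G, had a change of -1.06 ± 0.39 (limma adjusted p = 0.0904). Its mean of 55.9 in IGF1R-dnPI3K hearts was within the Y-linked level. Of the 9 changes in this list 7 were below 0 and 2 above. Sirpa, which receives the CD47 signal that restrains engulfment, rose in IGF1R-caPI3K against IGF1R-dnPI3K hearts by 1.06 ± 0.19 (adjusted p = 0.0284), at 546 ± 68.8 in IGF1R-caPI3K and 266 ± 61.0 in IGF1R-dnPI3K hearts (SD, n = 3 each). Its 2 other probe sets were not called in that comparison and fell in IGF1R-dnPI3K against IGF1R hearts, by 1.61 and 1.00 (adjusted p = 0.0471 and 0.0325).

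Of 18 tested lysosome and phagosome genes, 1 rose and 1 fell in IGF1R-dnPI3K against IGF1R hearts, beside 13.5% of all tested probe sets called. An unadjusted p under 0.05 was found for 3 higher and 4 lower of the 18, beside 32.2% of all (limma). Ctsl, the gene of cathepsin L, which is made by many cell types, rose by 0.89 ± 0.15 (limma adjusted p = 0.0113), at 2838 ± 418 in IGF1R-dnPI3K and 1534 ± 266 in IGF1R hearts (SD, n = 3 each). Ctsc, whose protease activates the granule proteases of immune cells, fell by 0.97 ± 0.17 (adjusted p = 0.0138), at 185 ± 16.3 in IGF1R-dnPI3K and 365 ± 68.2 in IGF1R hearts (SD, n = 3 each). Ctss, cathepsin S of antigen-presenting cells, had a change of -0.74 ± 0.23 and did not pass (adjusted p = 0.0592).

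Of 6 tested genes of pattern recognition and scavenging (Cd36, Scarb1, Scarb2, Myd88, Irak1 and Lbp) none was called in IGF1R-dnPI3K against IGF1R hearts, with 0 at an unadjusted p under 0.05 and a median change of 0.01. The complement list had a median change above 0. None of its 8 tested genes was called in IGF1R-dnPI3K against IGF1R hearts (3 higher, C1qc among them, and 1 lower at an unadjusted p under 0.05, limma), and the median change was 0.33, with 6 above 0. C5ar1, the receptor for the complement fragment C5a, averaged 673 ± 54.4 in IGF1R-dnPI3K hearts and 513 ± 42.1 in IGF1R hearts (SD, n = 3 each).

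Other leukocyte genes were mostly dim. Cd53, a tetraspanin of leukocytes, fell in IGF1R-dnPI3K against IGF1R hearts by 1.62 ± 0.32 (limma adjusted p = 0.0163), the only call among 15 tested pan-leukocyte genes, and its mean of 53.1 in IGF1R-dnPI3K hearts was within the Y-linked level. Of 11 tested genes of antigen presentation and dendritic cells, Zbtb46, a transcription factor of classical dendritic cells and endothelium, fell by 1.38 ± 0.26 and H2-Oa, a chain of a class II chaperone, fell by 1.01 ± 0.28 (adjusted p = 0.0146 and 0.0397). For Zbtb46 and H2-Oa every IGF1R-caPI3K heart was also below every IGF1R heart, though neither was called. Those changes were -0.63 ± 0.26 and -0.66 ± 0.28 (limma adjusted p = 0.232 and 0.247). Cd74, the invariant chain, averaged 1718 ± 1108 in IGF1R-dnPI3K and 1683 ± 85.6 in IGF1R hearts (SD, n = 3 each), with replicates of the first far apart. No gene was called in IGF1R-dnPI3K against IGF1R hearts among 6 monocyte and neutrophil, 4 T and NK cell, 5 B cell, 2 mast cell and 6 macrophage chemokine genes tested, with 0, 1, 1, 1 and 1 of them at an unadjusted p under 0.05 (limma). The T and NK cell gene and the B cell gene with such a p were higher, and the mast cell and chemokine genes were lower. Of the chemokine genes 9 of 23 and of the T and NK cell genes 9 of 16 were at or below the Y-linked level on every array. Cd79a, of the B cell receptor, fell in IGF1R-caPI3K hearts to 80.4 ± 3.08, against 287 ± 40.3 in IGF1R hearts (limma adjusted p = 0.0178). It was the only call among the 5 tested B cell genes in that comparison, with 2 changes above 0 and 3 below. Ms4a1, another B cell gene, had a change of 1.10 ± 0.60 (adjusted p = 0.357).

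Markers of the other heart cells moved in IGF1R-dnPI3K against IGF1R hearts, where 13.5% of all tested probe sets were called and 7.8% were called lower. Of 15 fibroblast genes, 2 rose and 5 fell in IGF1R-dnPI3K against IGF1R hearts, with a median change of -0.44; Postn, a matrix protein of activated fibroblasts, fell by 1.80 ± 0.39 and Lum, the matrix proteoglycan lumican, by 1.16 ± 0.21 (limma adjusted p = 0.0192 and 0.0143), while Gsn, gelsolin, rose by 0.50 ± 0.13 (adjusted p = 0.0333). Of 13 tested endothelial genes, 1 rose, Vwf (change 0.63 ± 0.16, limma adjusted p = 0.0281), and 3 fell. Kdr, a receptor for vascular endothelial growth factor, was among those that fell (change -1.16 ± 0.25, adjusted p = 0.0185). Every IGF1R-caPI3K heart was also below every IGF1R heart for Kdr, with a change of -0.90 ± 0.25 that was not called (adjusted p = 0.108). Of 13 tested cardiomyocyte genes, 5 rose and 1 fell in IGF1R-dnPI3K against IGF1R hearts, with a median change of 0.33. Of 3 tested red cell genes none was called, with 1 at an unadjusted p under 0.05 (limma).

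The summed signal of the 15 fibroblast genes was 38781 to 43165 in IGF1R-dnPI3K hearts, against 44357 to 48292 in IGF1R hearts. That of the 13 endothelial genes was 14741 to 18029 in IGF1R-dnPI3K hearts, against 16935 to 19340 in IGF1R hearts. That of the 13 cardiomyocyte genes was 234549 to 304047 in IGF1R-dnPI3K hearts, against 202724 to 217096 in IGF1R hearts, and that of the 10 members was 4571 to 7125, against 7323 to 8344. Such sums weigh the brightest probe sets most. In the fibroblast sum, Dcn and Gsn averaged 14007 and 11595 in IGF1R-dnPI3K hearts, against 13154 and 8112 in IGF1R hearts. None of the fibroblast, endothelial or cardiomyocyte genes was at or below the Y-linked level on every array. By mouse, the fibroblast median relative to the IGF1R mean was -0.23, -0.71 and -0.54 in IGF1R-dnPI3K replicates 1, 2 and 3, the cardiomyocyte median 0.13, 0.21 and 0.58, and the member median -0.10, -0.75 and -0.72. The part of these other cell types in the lower member signal was not tested.

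**Figure D4:**
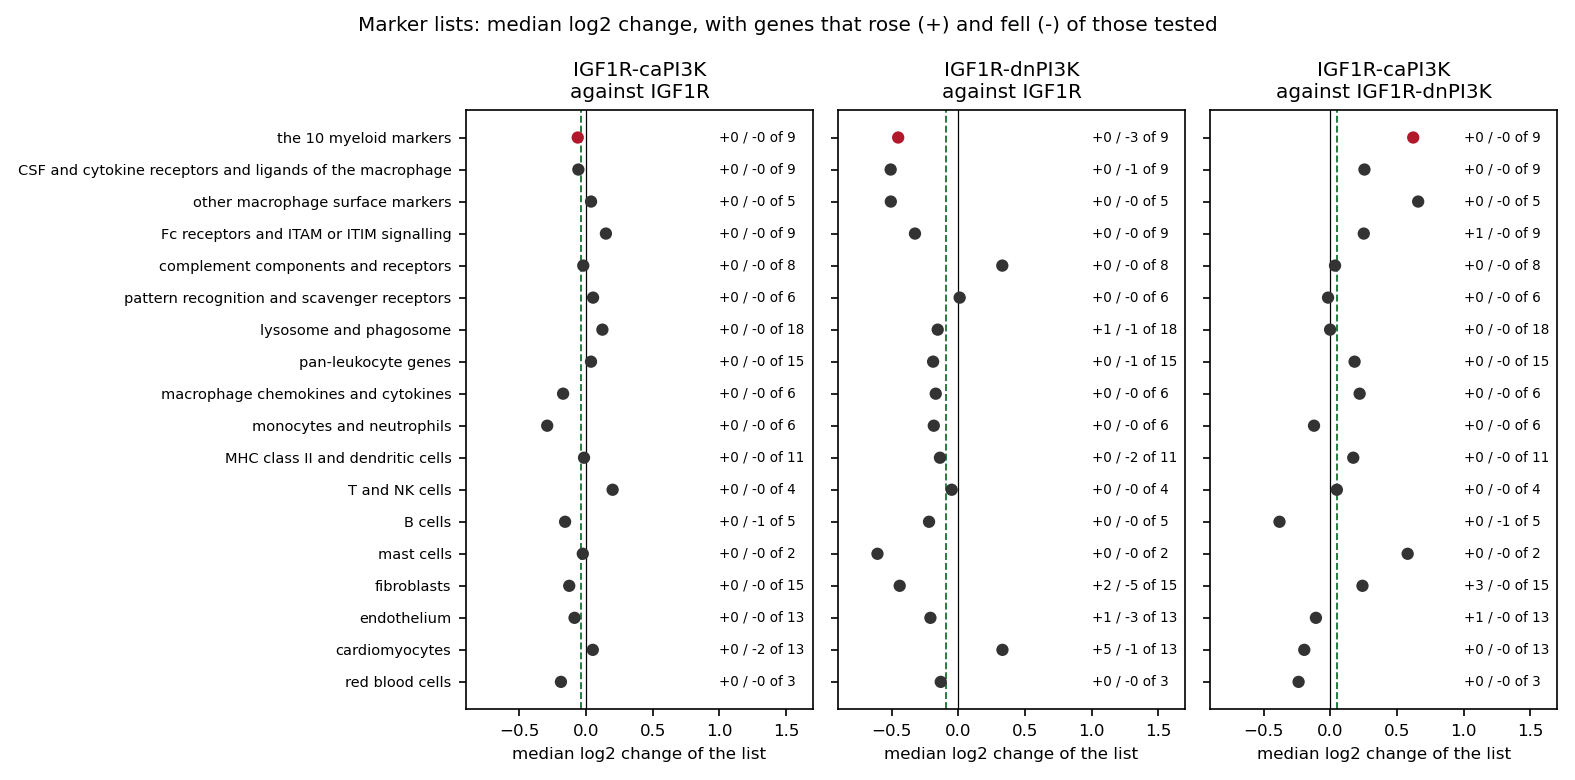
Median log2 change of each gene list (rows) in the 3 comparisons (panels), beside the median of all tested probe sets (dashed line), 1 probe set per gene; the text at the right counts genes that rose (+) and fell (-) of those tested. In IGF1R-dnPI3K against IGF1R hearts the members lie at -0.45, the fibroblast list at -0.44, complement at 0.33 and cardiomyocytes at 0.33.

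The mean standardised signal of the 9 tested member genes was 0.57, 0.66 and 0.27 in IGF1R-caPI3K replicates 1 to 3 and 0.15, -1.32 and -1.54 in IGF1R-dnPI3K replicates, against 0.36, 0.68 and 0.17 in IGF1R replicates. Read from the brightest probe set, 4 of these genes had their lowest signal of all 9 arrays in IGF1R-dnPI3K replicate 2 and 5 in replicate 3. The share of all tested probe sets lowest on these 2 arrays was not counted. Their median signals, 172.1 and 160.6, were the lowest of the 9 arrays. Over 5933 genes outside the members, patterns across the 9 arrays were ranked by likeness to the mean member signal. Most alike were Emp1 (Pearson r = 0.972), Postn (0.971), the histone chaperone gene Nap1l1 (0.969), the endosomal GTPase gene Rab5c (0.968) and the cytosolic phospholipase gene Pla2g4a (0.966). Tead1, F2r, Col14a1, Ctss and Fshr followed (0.961 to 0.959). These 9 points share the arrays and group means of the members, so the values rank genes and test nothing. Emp1, an epithelial membrane protein gene, averaged 4404 ± 30.1 in IGF1R-caPI3K and 2178 ± 1005 in IGF1R-dnPI3K hearts, against 4550 ± 575 in IGF1R hearts (SD, n = 3 each).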

How the data were processed

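Ventricular RNA of 9 mice was measured on 1 array each, and groups came from the sample titles. The deposited values are linear intensities, 1 for each probe set on each array, and they show that the authors scaled each array to a common trimmed mean. The sources used here name neither the algorithm nor detection calls. Replicate numbers follow deposit order and pair no samples. No arrays held identical columns. The p-values measure the spread between mice within groups, and 3 arrays a group limit the precision.

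Gene symbols came from the platform annotation: 10833 probe sets had 1 symbol, 396 several and 1193 none, and no gene was named from several. The 66 controls were left out. Intensities under 32.3, the 20th percentile, were set to it before taking log2. A probe set was kept if it exceeded the 40th percentile of the array on 3 or more arrays, which left 7898. All 9 arrays entered 1 linear model in limma 3.58.1 (R 4.3.3), with variances following the mean signal, and each contrast was adjusted by Benjamini-Hochberg at 0.05. Lists used the probe set with the highest mean per gene. The rule for named genes took every member, up to 4 called genes per list and comparison with the lowest p, and the 10 genes most like the members; the text leaves out some, and genes that were not called were chosen after values were seen.

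Members, lists and tests were chosen with earlier results of these data known. Alternatives were 11 other settings and each of 9 arrays left out. On simulated IGF1R-dnPI3K and IGF1R arrays, with 200 changed among 7898 probe sets, the model recovered 8.43% of changes of 0.5 (log2), 56% of changes of 1 and 95.5% of changes of 2. Of its calls 4.81% were false. Each probe set was simulated with the same spread in every group. The real median SD of log2 signal was 0.26 in IGF1R-dnPI3K and 0.16 in IGF1R hearts, so these rates may not hold for the data.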

Additional observations from a re-analysis of the deposited data

How the results depend on the processing

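Of 702 values of single member probe sets under 20 alternatives, 632 kept their direction and side of the threshold, 18 lost a call, 19 gained one, 33 changed sign without a call and 0 reversed a call. Members called in IGF1R-dnPI3K against IGF1R hearts were 3 as reported, 1 without a filter, 1 with only the 2 groups compared and 0 with the range of mouse numbers as a block, and 1 to 7 on leaving out an array. In IGF1R-caPI3K against IGF1R hearts they were 0, and 1 with only the 2 groups compared (C1qa, limma adjusted p = 0.0367); in IGF1R-caPI3K against IGF1R-dnPI3K hearts 0, 4 with array weights, and 0 to 8 on leaving out an array.

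Counts over all probe sets moved more. In IGF1R-caPI3K against IGF1R hearts the 17 calls became 77 with quantile normalization, 3 with a common median, 67 with a floor at the 40th percentile, 0 without a filter (1768 at an unadjusted p under 0.05, limma), 59 with a filter at the 60th, 7 with a constant prior variance, 777 with array weights, 699 with 2 groups, 1 with the block, 3 without probe sets marked as possibly shared, and 0 to 550 on leaving out an array. In IGF1R-dnPI3K against IGF1R hearts the 1066 became 386 without a filter, 657 with a constant prior, 132 with 2 groups, 5 with the block and 73 to 1861. In IGF1R-caPI3K against IGF1R-dnPI3K hearts the 98 became 36 without a filter, 45 with a constant prior, 348 with array weights, 13 with 2 groups, 8 with the block and 10 to 539. A common median turned the 450 higher and 616 lower calls of IGF1R-dnPI3K against IGF1R into 832 and 333. It moved the median of all probe sets from -0.09 to 0.08 and that of the 12 member probe sets from -0.39 to -0.22. Csf1r, Lyz2 and Mrc1 stayed called lower. The cause of these shifts was not tested. No paired analysis was possible because each mouse number belongs to 1 mouse. Signals near the Y-linked level limit what the dim probe sets can show.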

Other observations

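A probe set annotated to both lysozyme genes, Lyz1 and Lyz2, is not a member, and its signal is ascribed to neither gene. It read 1843.9, 1703.1 and 1586.5 in IGF1R-caPI3K hearts and 996.6, 691.8 and 1023.4 in IGF1R-dnPI3K hearts, against 1421.9, 1551.6 and 1454.4 in IGF1R hearts. Every IGF1R-dnPI3K heart was the lowest and every IGF1R-caPI3K heart the highest of the 3 groups. It fell in IGF1R-dnPI3K against IGF1R hearts by 0.73 ± 0.15 (limma adjusted p = 0.0181) and rose in IGF1R-caPI3K against IGF1R-dnPI3K hearts by 0.94 ± 0.15 (adjusted p = 0.0179). Its order of the IGF1R-dnPI3K mice differed from that of the Lyz2 probe set: replicate 3 was the highest of its group here and the lowest there.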
